A study of Danio rerio with 12 samples.

Results

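The genes described here are named for proteins of the cytoplasmic ribosome, without a test of whether each product belongs to it. They were chosen by the gene symbol given for each probe set: names that begin with rpl or rps and a number, together with rpsa, rplp0, rplp2 and rplp2l (now named rplp2b), while the rps6k kinases and probe sets annotated to more than 1 gene were left out. This gave 62 of the 18338 genes with a value, 35 of the large and 27 of the small subunit, and every one has an entry in the RefSeq annotation of zebrafish, over 24 chromosomes. Ribosomal protein genes without a probe set of their own under this rule were not analysed here, and rplp1 was not in the list. The probe set of highest mean stood for each gene: 46 members had 1 probe set and 16 had a second one.

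Whole-brain RNA of 12 adult male zebrafish of the wild-type AB strain, 11 months old, was hybridised to Affymetrix zebrafish gene 1.1 ST arrays, with 1 fish per array and 3 fish per group. All fish had spent a night alone in the test tank and were then tested for 30 min. Fish of the BIC group were attentive bystanders to a pair of fighting males, BANIC fish were attentive to a pair that did not interact, BINIC fish were inattentive to such a pair, and ISOL fish faced no other fish; bystanders looked through a one-way mirror and exchanged no chemical cues. The fish were picked from larger treatment groups for their behaviour, so the groups stand for attention profiles and not for randomly drawn fish.

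The ribosome joins a small subunit, which reads the messenger RNA, and a large subunit, which forms the peptide bonds. Each of its proteins is needed in a fixed proportion to the others and to ribosomal RNA, and cells keep their production matched through transcription, through mTOR-dependent translation of their mRNAs and through removal of unassembled copies. In neurons, ribosomes also work in dendrites and axons, where local protein synthesis serves synaptic plasticity.

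Values are log2 intensities after robust multi-array averaging (RMA). Probe sets differ in how strongly they bind their target, so that a level was compared between fish, and no order of expression between genes was read from it. A difference was called when its p, from limma with Benjamini-Hochberg adjustment over all 18338 genes, was under 0.05. In a whole brain, fewer cells of a type and less RNA per cell cannot be told apart.

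As a list, the ribosomal protein genes stood at the same level in the 4 groups. The mean over the 62 genes was 7.20 ± 0.043 (SD, n = 3) in BIC, 7.20 ± 0.031 in BANIC, 7.20 ± 0.0053 in BINIC and 7.19 ± 0.056 in ISOL. The array of ISOL replicate 2 was the lowest of the 12 at 7.12, and BIC replicate 2 was the highest at 7.24. All groups overlapped. The same held for each subunit: the large subunit averaged 7.42 in BIC, 7.41 in BANIC, 7.42 in BINIC and 7.40 in ISOL, and the small subunit 6.92, 6.92, 6.91 and 6.91.

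**Figure D1:**
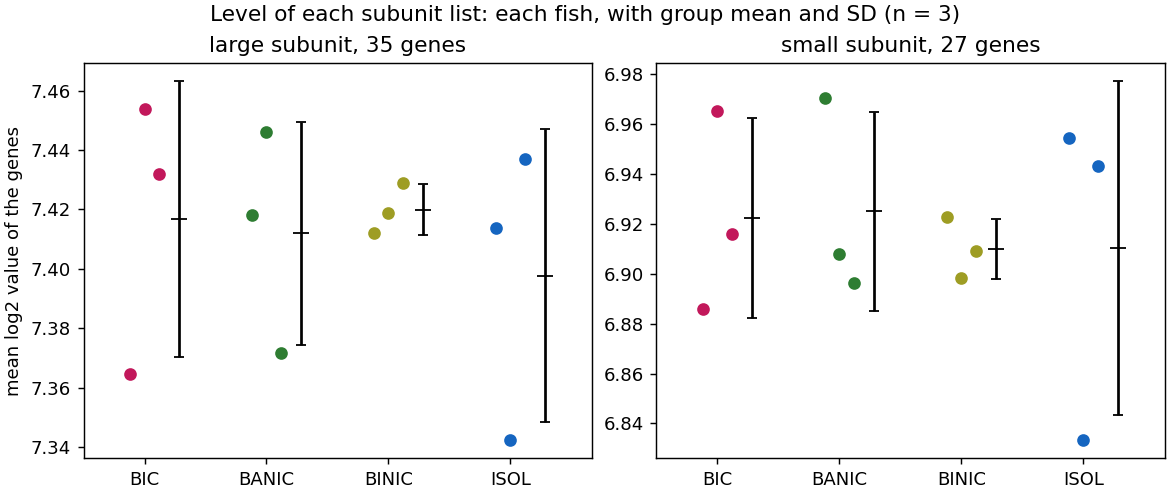
Mean log2 value of the 35 large subunit genes (left) and the 27 small subunit genes (right) in each fish (points), with the group mean and SD (n = 3) in black. The 4 groups overlap in both panels, and the axes cover a narrow range, from about 7.34 to 7.45 for the large subunit and from 6.83 to 6.97 for the small one.

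Most members had bright probe sets, and their median SD was slightly below that of all genes. The probe sets' means over the 12 arrays ran from 4.82 to 10.4, and 53 of the 62 were brighter than the median gene, at 5.75; brightness depends on the probes as well as on the transcript. The brightest probe sets were those of rpl6, rpl7, rps2, rpl30 and rpl13, and the dimmest those of rps7, rps13, rpl39, rps27l and rpl7a. The median SD over the 12 arrays was 0.116, against 0.127 for all genes, and the median SD within groups was 0.101 against 0.121. The steadiest member was rpl7, with an SD of 0.040. The most variable was rps29 with 0.371, followed by rps13, rpl11, rplp2, rps27l, rpl27, rps20 and rps27.1. For rps13 and rps27l the variation lay within groups: in BIC alone, rps13 read 5.47, 5.52 and 4.57.

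No ribosomal protein gene was called in any of the 6 comparisons. Over all genes there were 3 calls for BIC against ISOL (0.0164% of the genes), 5 for BANIC against ISOL (0.0273%), 2 for BINIC against ISOL (0.0109%), 1 for BIC against BANIC (0.00545%), 2 for BIC against BINIC (0.0109%) and 1 for BANIC against BINIC (0.00545%). The smallest adjusted p of any member was 0.248, for rpl11 in BINIC against ISOL (limma).

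The list's median log2 fold change was also close to 0 throughout, between -0.017 and 0.019 in the 6 comparisons, where the median of all genes lay between -0.015 and 0.007. What differed between comparisons was how far the single genes lay from 0 on either side. In BINIC against ISOL the median size of the log2 fold change was 0.14 over the members and 0.088 over all genes. In BIC against ISOL it was 0.058 against 0.071, and in BANIC against ISOL 0.060 against 0.073. Between the subunits the order was not fixed: the small subunit had the larger value in BINIC against ISOL, 0.194 against 0.123, and the large subunit in BANIC against BINIC, 0.138 against 0.128.

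**Figure D2:**
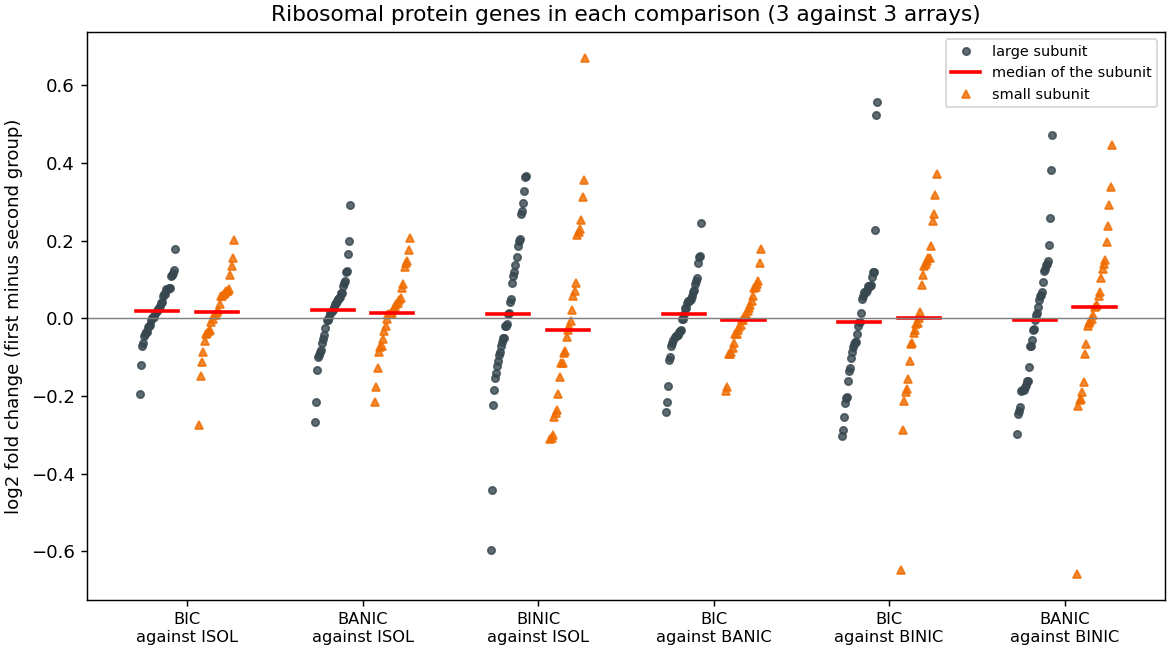
Log2 fold change of each of the 62 genes (points, large subunit, and triangles, small subunit, sorted within each column) in the 6 comparisons, with the median of each subunit as a red line. The medians stay near 0, while the 3 comparisons that include BINIC spread over a wider range, down to -0.60 and up to 0.67 in BINIC against ISOL.

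With a count at an unadjusted P under 0.05 as a description, the 3 comparisons with BINIC stood out. In BINIC against ISOL 21 of the 62 members were below it, or 33.9%, beside 9.31% of all genes. Of these, 14 were higher in BINIC, where the share over all genes was 5.24%, and 7 were lower, where it was 4.07%. The subunits took similar parts, with 11 of the 35 large and 10 of the 27 small subunit genes. In BIC against BINIC the count was 17, beside 8.60% of all genes, with BIC higher for 7 (3.39%) and lower for 10 (5.21%). In BANIC against BINIC it was 22, beside 8.54%, with BANIC higher for 8 (3.45%) and lower for 14 (5.09%). These 3 comparisons share the BINIC arrays and are not independent of each other. The other comparisons gave 1 member for BIC against ISOL (5.63% of all genes), 4 for BANIC against ISOL (5.89%) and 3 for BIC against BANIC (4.22%). The shares over all genes tested were larger in the comparisons with BINIC when limma was fitted again on bright genes alone. The parts of brightness and of the new fit in this were not tested. With genes dimmer than the median gene left out, 53 members remained. Of these, 26 had a P under 0.05 in BINIC against ISOL, beside 12.9% of the genes kept. The count was 21 in BIC against BINIC (12.7%) and 26 in BANIC against BINIC (12.7%).

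The separation between fish gave a like picture. For 18 of the 62 members, or 29%, all 3 BINIC arrays lay beyond all 9 others, beside 3.71% of all genes. For 12 of them BINIC was above (2.34% of all genes) and for 6 below (1.37%). The 12 were rpl3, rpl5a, rpl9, rpl21, rpl26, rpl30, rpl31, rps3, rps6, rps16, rps24 and rps29, on 11 chromosomes, and the 6 were rpl11, rpl13a, rpl24, rplp2, rps2 and rps20, on 6. No member was apart in this way in BIC (0.813% of all genes) or ISOL (1.33%), and 2, rpl7 and rpl14, in BANIC (0.703%), where both were higher. A typical member lay 0.102 to 0.111 from its own 12-array mean on the 3 BINIC arrays, as the median over the list, and 0.052 to 0.092 on the other 9.

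**Figure D3:**
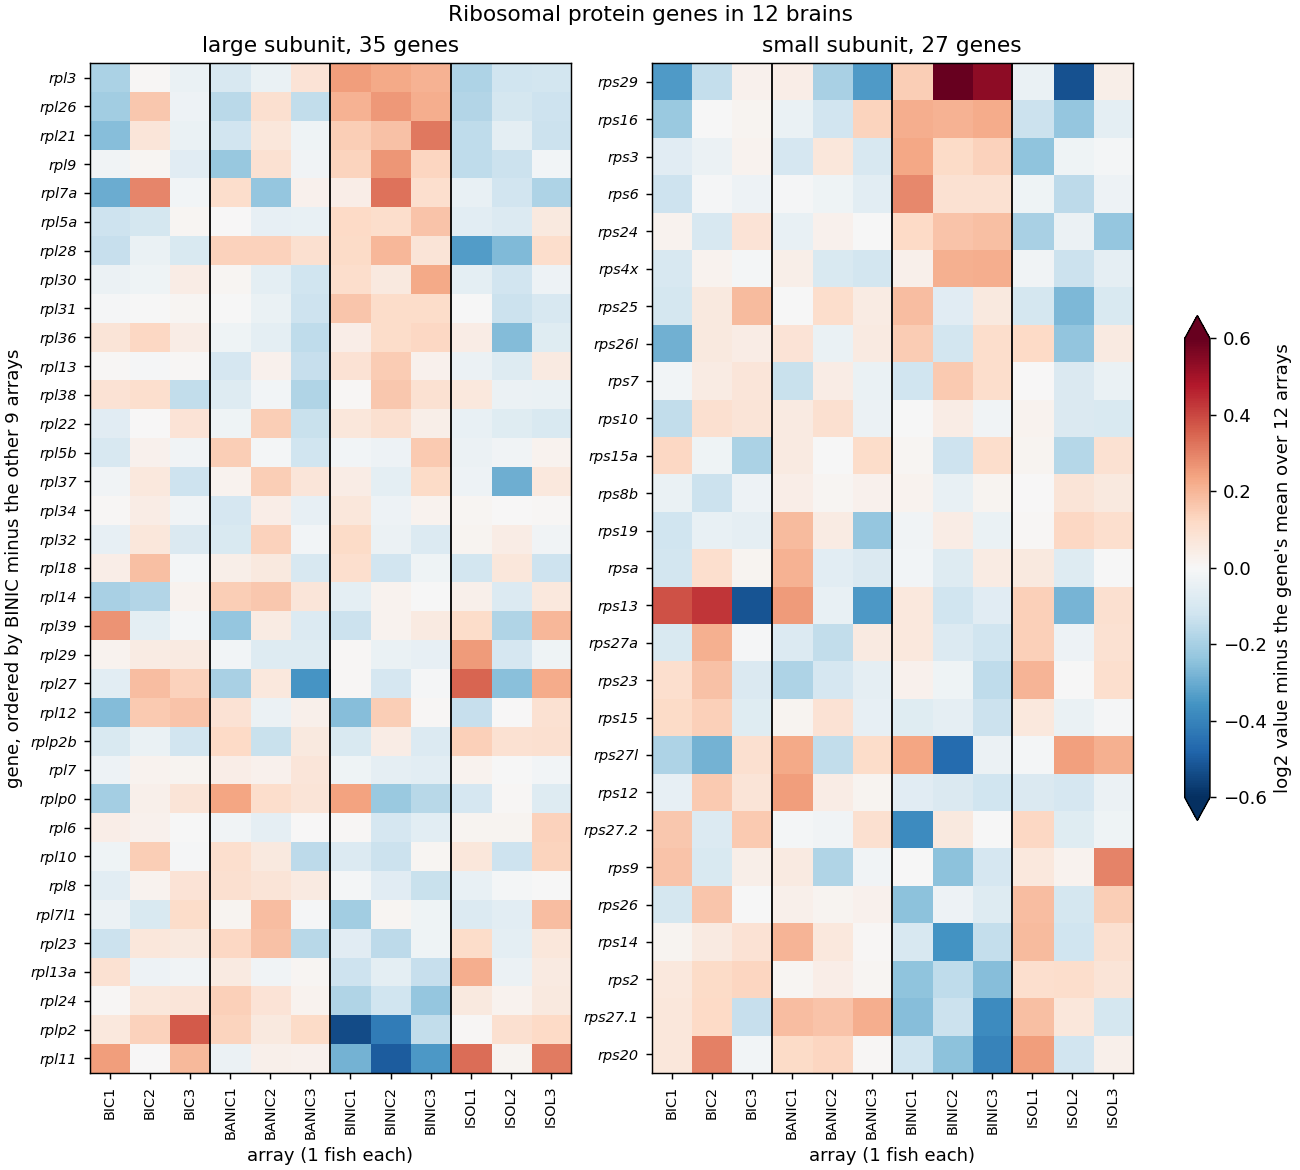
Each row is a gene and each column an array; the colour gives the log2 value minus the gene's mean over the 12 arrays, red for higher and blue for lower, cut at 0.6 either way. Rows are sorted within each subunit by BINIC minus the other 9 arrays, from rpl3 to rpl11 in the large (left) and from rps29 to rps20 in the small subunit (right), so the order itself comes from the BINIC columns.

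Among the ribosomal protein genes lower in BINIC than in ISOL, rpl11 had the smallest p. Together with Rpl5 and the 5S ribosomal RNA, its protein forms a particle of the large subunit that, in mammals, also holds the p53 regulator Mdm2. It read 7.80, 7.59 and 7.74 in BINIC, 8.42, 8.10 and 8.40 in ISOL, 8.34, 8.09 and 8.28 in BIC, and 8.05, 8.12 and 8.11 in BANIC. All 3 BINIC fish were below the other 9, and ISOL replicate 2 sat with the BANIC fish. The log2 fold change was -0.60 (SE 0.11) against ISOL, with an adjusted p of 0.248 (limma), and BIC was 0.52 (SE 0.094) above BINIC, with an adjusted p of 0.338. Of the 2 genes for its partner, rpl5a was above the other 9 arrays in all 3 BINIC fish, by 0.17 on average, while for rpl5b the fish were on both sides of the others' mean (0.049 on average).

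The protein of rps2 lines the entry of the small subunit's mRNA channel. Its level was even among the other fish, between 9.91 and 10.03, and read 9.66, 9.75 and 9.64 in BINIC. The difference from ISOL was -0.31 (SE 0.070, adjusted p 0.335, limma).

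The acidic stalk of the large subunit, which receives the elongation factors, is built on Rplp0 with Rplp1 and Rplp2. For rplp2 the BINIC fish read 5.54, 5.66 and 5.93, below the range of 6.09 to 6.45 in the others. The log2 fold change was -0.44 (SE 0.11) against ISOL, with an adjusted p of 0.390. For its paralog rplp2b the BINIC fish lay within the range of the others, and BINIC minus the others was -0.057. Against ISOL alone, rplp2b was also lower in BINIC, at 5.98, 6.11 and 5.99 against 6.21, 6.16 and 6.17. The log2 fold change was -0.15 (SE 0.073, adjusted p 0.562, limma). The lowest group of rplp2b was BIC, with 5.98, 6.03 and 5.95 (log2 fold change -0.19 against ISOL, SE 0.067, adjusted p 0.873). For rplp0 the BINIC fish were on both sides, at 9.37, 8.91 and 8.96, and BANIC exceeded ISOL by 0.20 (SE 0.076, adjusted p 0.813).

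The levels of rpl24, a large subunit protein that takes part in a bridge to the small subunit, were 8.91, 8.97 and 8.86 in BINIC and 9.10 to 9.24 in the 9 other fish. The difference from BANIC was the widest of the 3, with BANIC 0.26 (SE 0.068) above BINIC and an adjusted p of 0.468. Of the small subunit's head, rps20 read 6.44, 6.31 and 6.16 in BINIC. Its lowest other fish, ISOL replicate 2, was only just above, also at 6.44. The zinc-finger protein gene rps27.1 was at 6.53, 6.66 and 6.41 in BINIC and at 6.98, 6.96 and 7.01 in BANIC, a difference of 0.45 (SE 0.080, adjusted p 0.300), but 1 BIC fish at 6.65 fell inside the BINIC range.

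On the higher side, rpl3 encodes a protein that reaches toward the peptidyl transferase centre. It read 9.07, 9.05 and 9.03 in BINIC, 8.64, 8.70 and 8.71 in ISOL, 8.63, 8.83 and 8.78 in BIC, and 8.73, 8.78 and 8.90 in BANIC. The 3 BINIC values were closer to each other than to any other fish. The log2 fold change against ISOL was 0.37 (SE 0.068), with an adjusted p of 0.249.

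For rpl26, rps16 and rpl21 the BINIC fish were again the highest. For rpl26, found near the opening of the exit tunnel, BINIC read 8.37, 8.42 and 8.37 and ISOL 7.98, 8.05 and 8.03, a difference of 0.36 (SE 0.068, adjusted p 0.249). BIC replicate 2 and BANIC replicate 2 were close to BINIC, at 8.32 and 8.26. For rps16, whose protein has a tail that touches the tRNA in the P site, BINIC read 6.10, 6.09 and 6.10 and ISOL 5.75, 5.65 and 5.82, a difference of 0.36 (SE 0.075, adjusted p 0.326). For rpl21 the values were 9.13, 9.15 and 9.30 in BINIC and 8.83, 8.92 and 8.85 in ISOL (log2 fold change 0.33, SE 0.078, adjusted p 0.372).

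**Figure D4:**
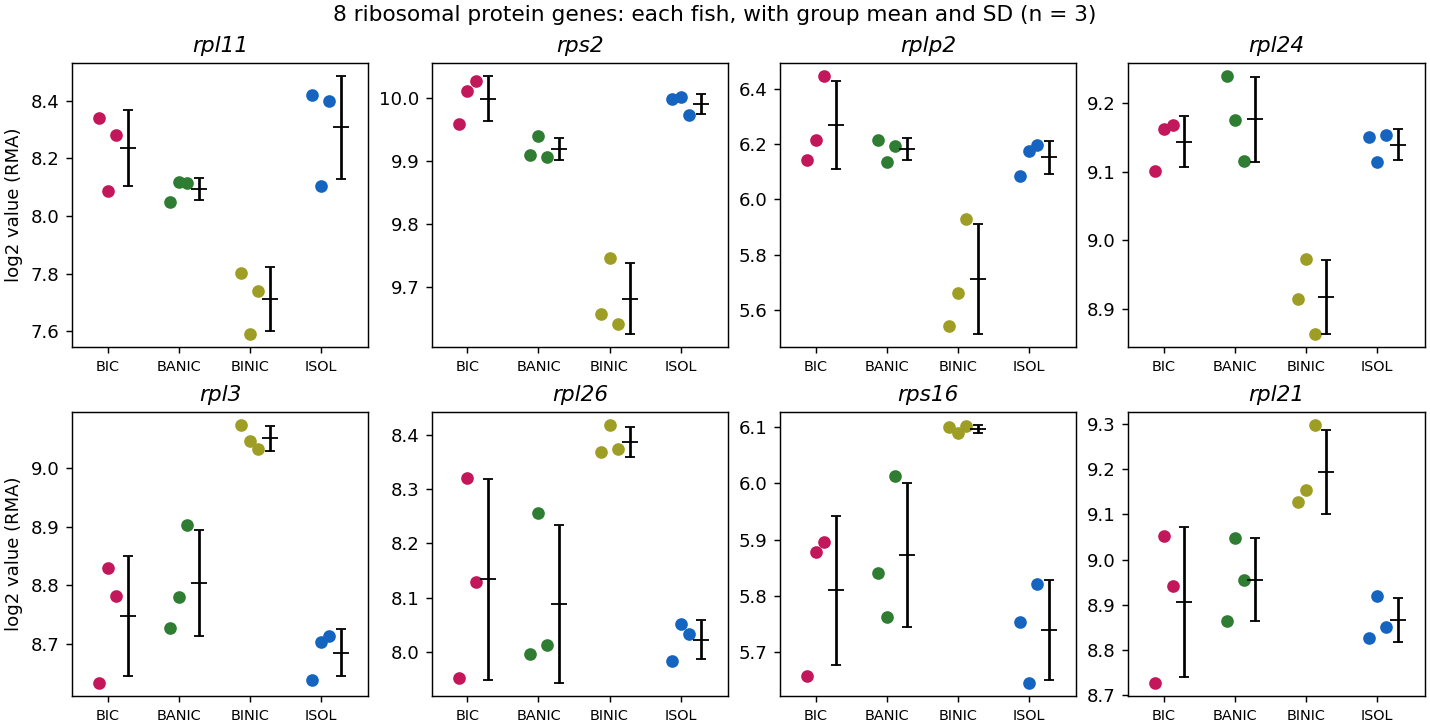
Log2 value of 8 ribosomal protein genes in each fish (points, coloured by group), with group mean and SD (n = 3) in black; each panel has its own axis. In the upper row (rpl11, rps2, rplp2, rpl24) the BINIC fish lie below the 9 others and in the lower row (rpl3, rpl26, rps16, rpl21) above them; the 8 genes were picked for their small P in BINIC.

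The largest difference of any member was that of rps29, a small zinc-binding protein of the small subunit's head. BINIC read 6.88, 7.53 and 7.27, above the range of 6.21 to 6.77 in the others. The fish of this group differed most among themselves, with an SD of 0.33, and those of ISOL nearly as much, with 0.30. The log2 fold change of 0.67 against ISOL had an SE of 0.20 and an adjusted p of 0.442 (limma). The product of rps6 is the ribosomal target of the S6 kinases downstream of mTOR. It read 8.61, 8.42 and 8.42 in BINIC and at most 8.32 elsewhere (BINIC against ISOL 0.23, SE 0.086, adjusted p 0.496). For rpsa, known also as the laminin receptor, BINIC fell within the range of the others, at 7.72, 7.66 and 7.78 against 7.62 to 7.94.

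Across the 3 comparisons with BINIC, 8 members were higher in BINIC at an unadjusted P under 0.05 in each and 6 were lower. The 8 were rpl3, rpl9, rpl21, rpl26, rps3, rps6, rps16 and rps29, and the 6 rpl11, rpl24, rplp2, rps2, rps20 and rps27.1. These were 8 and 6 of the 62 members, where the counts over all 18338 genes were 216 and 103. The 3 comparisons share the BINIC arrays, so agreement among them is not independent. As a comparison made after these values were seen, BINIC was set against the other 9 arrays together. Here 22 members had an unadjusted P under 0.05, beside 11.7% of all genes, and none was called, with 1 call over all genes (0.00545%). The smallest adjusted p was 0.0629, for rps2 (log2 fold change -0.29, SE 0.046) and rplp2 (-0.49, SE 0.082). The calls of this comparison depended on the setting: with dim genes left out, 6 members were called (132 calls among 9169 genes). They were rps2, rplp2, rpl11 and rpl24, lower in BINIC, and rpl3 and rps29, higher. In that setting 24 of 53 members had an unadjusted P under 0.05, beside 16.7% of the genes kept.

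Paralogs differed in how far they lay from the other fish. Beside rpl5a and rplp2, rps27.1 was -0.34 in BINIC minus the others, its copies rps27.2 and rps27l -0.14 and -0.12, rps26 -0.16 and rps26l 0.067. For rps27.2, rps27l and rps26l the BINIC fish lay on both sides of the others' mean. The single fish were at -0.41, 0.023 and -0.039 for rps27.2, and at 0.21, -0.49 and -0.062 for rps27l. Both rpl7 and rpl7l1 were close to 0, at -0.064 and -0.097. Paralogs can share array probes, and how far that was so here was not tested.

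A second probe set existed for 16 members and had the same sign of BINIC minus the others in 13. In some of these its value was close to 0, as for rps14 (-0.0026 beside -0.265) and rpl28 (0.0085 beside 0.173). All 16 were dim, below the median gene, and for rps20 alone did the second one also set BINIC apart, at -0.27 beside -0.34. That second probe set of rps20 read 3.852, 4.159 and 4.273 in BINIC. The lowest other fish, BANIC replicate 1, was only just above, at 4.275. For rps26, rps27.1 and rpl23 the signs were opposite, 0.24 beside -0.16, 0.17 beside -0.34 and 0.0050 beside -0.11.

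In the comparisons without BINIC few members stood out. Against ISOL, BANIC was lower for rps23 (-0.22, SE 0.082) and higher for rps25 (0.21, SE 0.079), each with an adjusted p of 0.813 (limma). BANIC was also lower for rpl11 (-0.21, SE 0.099, adjusted p 0.849), the member of smallest p in BINIC against ISOL. It was higher for rpl28 (0.29, SE 0.12, adjusted p 0.835) and rps12 (0.18, SE 0.084, adjusted p 0.854). For BIC the members next after rplp2b were rps27l (-0.27), rps19 (-0.15), rps25 (0.20), rpl36 (0.18) and rps24 (0.16), with adjusted p from 0.881 to 0.897. Between the attentive groups, BIC was lower than BANIC for rpl28 (-0.21 on the log2 scale) and rpl14 (-0.24) and higher for rpl36 (0.16), each with an adjusted p of 1. For rpl14 the BANIC fish read 8.41, 8.42 and 8.33 and the BIC fish 8.07, 8.08 and 8.28, with no overlap.

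Other genes of the translation machinery were counted by the same rule. The list of translation factors was made by name and also held regulators, such as the kinase genes eif2ak1, eif2ak2 and eef2k. It shared eif4ebp1, eif4ebp2, eif4ebp3 and eif4ebp3l with the mTOR list and eif6 with the biogenesis list. For BINIC beyond the other 9 arrays there were 7 of 75 translation factors (9.33%), 4 of 94 ribosome biogenesis genes (4.26%), 2 of 61 mitochondrial ribosomal protein genes (3.28%) and 0 of 28 genes of mTOR and S6 kinase signalling, beside the 3.71% of all genes. The translation factors above were eef1a1a, which delivers tRNA to the ribosome, eif5, the cap-binding eif4e1c, eif3m and eif3s6ip of initiation factor 3, and rack1, a scaffold on the small subunit, and below was eif3ha. At an unadjusted P under 0.05 in BINIC against ISOL the counts were 9, 11, 10 and 1 in the same order, or 12%, 11.7%, 16.4% and 3.57% of the lists, beside 9.31% of all genes. In these lists, too, no gene was called in any of the 6 comparisons.

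**Figure D5:**
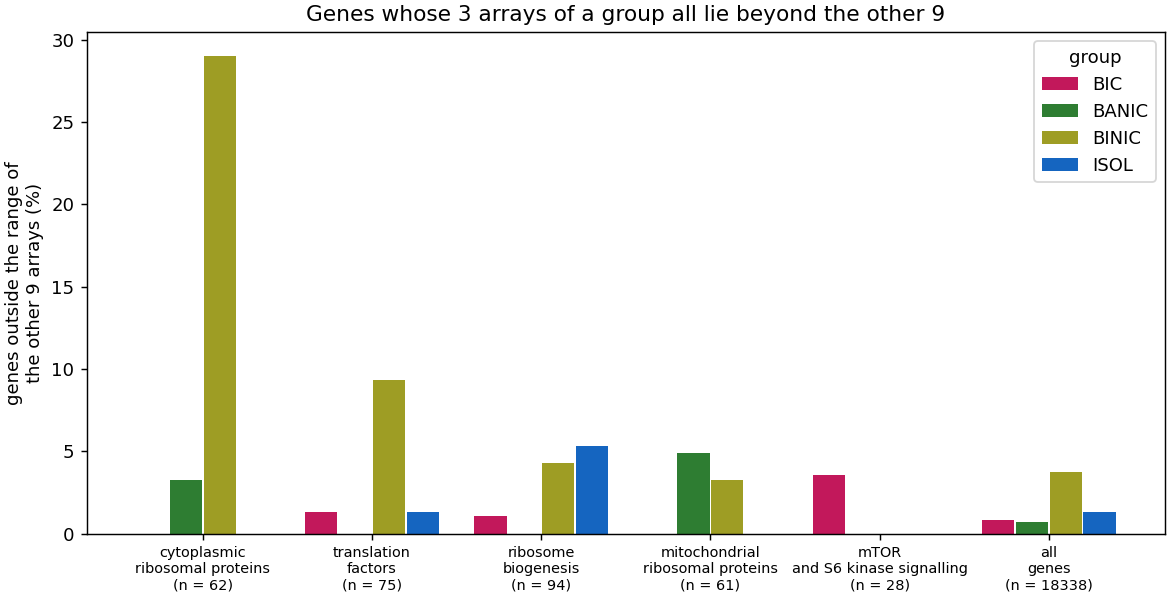
Percent of the genes of each list whose 3 arrays of 1 group (colours) all lie above or all below the other 9 arrays; n is the number of genes in a list, and an empty place stands for 0. The bar of BINIC for the cytoplasmic ribosomal protein genes reaches 29%, beside 3.71% for all genes.

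Means of the marker lists ran from 9.40 to 9.48 for 9 neuronal genes, 9.03 to 9.33 for 6 genes of radial glia and 8.50 to 8.71 for 5 of oligodendrocytes. Their ranges in BINIC, 9.43 to 9.44, 9.12 to 9.33 and 8.56 to 8.71, overlapped those of the others. The 7 genes of microglia and leukocytes ran from 5.61 to 5.83 in BINIC and from 5.65 to 5.93 in the others. For 4 endothelium genes the ranges were 5.75 to 5.91 and 5.64 to 5.99, and for 6 pituitary genes 3.97 to 4.03 and 3.86 to 4.19. The 4 blood cell genes ran from 6.62 to 6.93 in BINIC and from 6.01 to 7.98 in the others, and the 6 retina genes from 3.60 to 4.81 and from 3.49 to 4.85. The 6 genes of muscle and skin ran from 5.22 to 5.63 in BINIC and from 4.92 to 5.73 in the others. At an unadjusted P under 0.05, 3 of the 4 blood genes were lower in BINIC than in BANIC (3.45% of all genes). In BINIC, 3 of the 6 retina genes and 2 of the 6 muscle and skin genes were higher than in BIC (5.21%). The count of retina genes lower in BIC than in ISOL was also 3 (3.13%), and 0 differed between BINIC and ISOL. Of the muscle and skin genes, 2 were higher in BINIC than in the other 9 arrays (7.34%) and 1 higher than in ISOL (5.24%). Lists other than blood, retina, and muscle and skin had at most 1 gene either way in a comparison with BINIC. None of the marker genes was called in these comparisons. Their part in the differences of the ribosomal protein genes was not tested. The median deviation of all genes from their own means was 0.083 to 0.087 on the BINIC arrays and 0.070 to 0.091 on the others. The labels and the file name no array, labelling or extraction batch, so no value within a batch could be given, and the part of a batch in the BINIC differences was not tested.

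The genes whose values followed the members' mean most closely over the 12 arrays were inip (Pearson r 0.869), slc7a11 (0.852), man1b1a (0.844), ube2g1a (0.835) and ifi44f1 (0.831). All 12 points come from the same normalisation, and the members' mean covered only 7.12 to 7.24, so these values are a description.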

How the data were processed

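Per the labels and the methods of the study, the package oligo was used by the authors for RMA (background correction, quantile normalisation and probe set summary). The deposited values are log2 intensities for 23467 probe sets on 12 arrays. Quantile normalisation makes the arrays' distributions equal, so a shift common to all genes cannot be seen. Names came from the platform annotation, and chromosomes from RefSeq (GRCz12tu). Of 19283 probe sets with 1 Entrez gene, the one of highest mean was kept for each of 18338 genes.

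Each comparison was fitted on its 6 arrays with limma 3.58.1 (R 4.3.3). The SD filter of the methods was an alternative here, since it drops 37 members that vary little. Their further threshold, a log2 fold change of 1 either way, changes no count of members. Precision is limited by the 3 arrays per group. Fitting was tested on simulated data.

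The members and gene lists were chosen with earlier results of these data known. Named are, by rule, the 6 members of smallest P per comparison, the 5 highest and 5 lowest, the 8 most variable, paralogs, the stalk genes, rpsa, rps6 and the 5 most similar genes; members and translation factors apart in BINIC were named after their values were seen. Replicate numbers were not taken to pair the fish. No coordinates are given, because the assembly differs from the array's design, and no sequences were used here.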

Additional observations from a re-analysis of the deposited data

How the results depend on the processing

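No ribosomal protein gene was called in the 6 comparisons under any alternative, and their median log2 fold change moved by less than its spread between replicates, though so close to 0 that its sign is not stable. Counts of members at an unadjusted P under 0.05 varied more. With the SD filter, which leaves 25 members, they were 0 for BIC against ISOL, 0 for BANIC against ISOL, 11 for BINIC against ISOL, 0 for BIC against BANIC, 8 for BIC against BINIC, 8 for BANIC against BINIC and 13 for BINIC against the other 9 arrays, beside 5.67%, 5.95%, 8.76%, 3.58%, 7.73%, 7.55% and 10.2% of the genes tested. The SD of this filter is taken over all arrays, BINIC included, so a difference of BINIC itself helps a gene to pass. The counts with BINIC among the 25 members kept are thus partly set by the filter. They do not test the BINIC differences separately. One fit of all 4 groups gave 4 for BIC against ISOL (5.97% of all genes) and 1 for BIC against BANIC (3.46%). The mean of all probe sets gave 2 for BIC against ISOL (5.67%), and a trended, robust empirical Bayes step 5 for BIC against BANIC (3.8%). The cause was not tested, beyond the fewer members under the SD filter.

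Same-numbered fish correlated between -0.141 and 0.183, with 1 of 18 pairs over 0.1, so the numbers were not treated as pairs. With the replicate number as a block, the counts were 2 for BIC against ISOL (6.09% of all genes), 0 for BANIC against ISOL (6.65%) and 14 for BANIC against BINIC (7.39%), and within 1.5 times the main count elsewhere.

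Leaving out 1 array at a time gave 1 to 3 members for BIC against ISOL (3.66% to 7.31% of all genes), 0 to 5 for BANIC against ISOL (4.95% to 7.96%), 14 to 20 for BINIC against ISOL (6.75% to 11.2%), 2 to 4 for BIC against BANIC (3.81% to 5.14%), 13 to 15 for BIC against BINIC (7.07% to 9.22%), 12 to 19 for BANIC against BINIC (6.71% to 8.23%) and 21 to 23 for BINIC against the other 9 (9.63% to 12.9%). The lowest for BANIC against BINIC came without BINIC replicate 3, and 14 came without BANIC replicate 1 or BANIC replicate 3. For BANIC against ISOL the 0 came without BANIC replicate 2.

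BINIC against the other 9 arrays, added after the data were seen, had no called member, but 6 with dim genes left out (132 calls among 9169 genes) and 5 with the trended, robust step (rps2, rplp2, rpl11, rpl24 and rpl3; 84 calls among 18338 genes). It had 0 to 1 when 1 array was left out, the 1 being rplp2 without BINIC replicate 3 (6 calls). The count of members apart in BINIC, 18 (3.71% of all genes), was also 18 with array medians subtracted (3.49%) and 15 with probe sets averaged (3.66%). Without 1 array it could not fall, and was 18 to 24, beside 4.06% to 7.91% of all genes. The 24 came without BINIC replicate 1 (7.46%). Without 1 BINIC array the share over all genes was 7.46% to 7.91%, and without 1 other array 4.06% to 4.92%. Nor could the count fall without dim genes (18, 5.91% of those kept), as none of the 18 was dim.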

Other observations

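Genes of ribosome biogenesis serve the making of ribosomal RNA and its assembly with the ribosomal proteins. In BIC against ISOL, 77 of the 94 biogenesis genes had a negative log2 fold change, beside 53.2% of all genes, with a median of -0.081 beside -0.0085 for all genes and 0.018 for the ribosomal proteins. At an unadjusted P under 0.05, 9 were lower (3.13% of all genes) and 1 higher (2.50%), and none was called (limma, smallest adjusted p 0.873). The list's mean was 5.61 ± 0.026 (SD, n = 3) in BIC, with a range of 5.59 to 5.64, and 5.69 ± 0.068 in ISOL, with a range of 5.65 to 5.77. It was 5.66 ± 0.055 in BANIC, where it ran from 5.59 to 5.70, and 5.70 ± 0.032 in BINIC. ISOL replicate 2 stood apart at 5.77 from the other ISOL fish, at 5.66 and 5.65: without it the difference of BIC from ISOL went from -0.082 to -0.043, and 65 of the 94 genes were negative, beside 50.2% of all genes. In BIC against BINIC 76 of the 94 were negative, beside 10109 of all 18338 genes, with a median of -0.093 (all genes -0.014). In BIC against BANIC 69 were negative, beside 9132 of all genes, with a median of -0.036 (all genes 0.00044). These comparisons share the BIC arrays. The count was 60 in BANIC against ISOL (9713 of all genes), with a median of -0.046 (all genes -0.0080). ISOL replicate 2 is part of that comparison too, and its effect there was not tested. In BANIC against BINIC the count was also 60 (10184 of all genes), with a median of -0.062 (all genes -0.015).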
